A study of Mus musculus with 16 samples.

Results

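Lyz1, Ang4, Mmp7 and Itln1 are 4 mouse genes whose proteins are stored in or act on the secretory granules of Paneth cells, and they were followed here as a set. They were chosen by name, through the NCBI Gene IDs in the deposited tables, and make up 4 of the 36528 gene IDs measured in each library. RNA was sequenced from cells of mouse intestinal tumours, sorted for GFP, with tumours of 2 genotypes labelled AKVPSL and AKVPL. The groups were AKVPSL GFP+, AKVPSL GFP-, AKVPL GFP+ and AKVPL GFP-, with 4 libraries in each and 16 in all. The design text names the sorted cells by Lgr5, the receptor that marks crypt base stem cells, so that GFP+ stands for Lgr5-expressing and GFP- for the remaining sorted cells. The 2 genotype names differ by the letter S, and the labels do not spell out any of the letters. In mouse tumour models named in this way S stands for Smad4, the change by which the genotypes differ. Among the letters that all groups share, A stands for Apc, V for a Cre driver under the Villin promoter of the intestinal epithelium, P for Trp53 and L for the Lgr5 reporter. Nothing used here gives age, strain, the number of tumour lines behind the libraries or any gate other than GFP. The labels do not say that the libraries of a group came from separate animals, and p-values then reflect library-to-library spread only, part of which may be technical.

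Paneth cells sit at the base of small intestinal crypts between the Lgr5 stem cells and release antimicrobial proteins into the crypt lumen. Lyz1 encodes the lysozyme of their granules, which cleaves bacterial cell walls, and Ang4 encodes an angiogenin-type ribonuclease with antimicrobial activity that is also made by goblet cells. Mmp7 encodes matrilysin, the protease that cuts the precursors of mouse alpha-defensins into active peptides and that is also made by intestinal tumour cells. Itln1 encodes intelectin 1, a lectin that binds sugars of microbial surfaces. The healthy mouse colon lacks classical Paneth cells. All titles of these libraries name the colon, while the tissue field gives small intestine for 15 of them. The exception, given as colon, is AKVPSL GFP- replicate 1. Which site the tumours came from is therefore not settled by the labels.

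The promoters are shown because Lyz1 and its neighbour Lyz2, the lysozyme gene of macrophages and other myeloid cells, have near-copies of a start region and yet moved in opposite directions with the sort, and because Ang4 and Mmp7 were the members whose sort effects differed between the genotypes. Each sequence runs from 250 bases before the annotated start to 20 bases after it, 5′ to 3′ on the gene's strand, from RefSeq, build GRCm38.p6. The windows are chr10:117292849-117293118, minus strand, for Lyz1, chr10:117282253-117282522, minus strand, for Lyz2, chr14:51773571-51773840, minus strand, for Ang4 and chr9:7691840-7692109, plus strand, for Mmp7. Capitals mark the motifs found.
Lyz1: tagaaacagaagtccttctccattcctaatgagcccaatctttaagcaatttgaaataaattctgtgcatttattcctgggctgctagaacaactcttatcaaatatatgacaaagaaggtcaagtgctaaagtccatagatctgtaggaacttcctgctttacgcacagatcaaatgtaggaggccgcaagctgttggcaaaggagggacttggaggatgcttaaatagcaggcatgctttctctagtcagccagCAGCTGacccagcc
Lyz2: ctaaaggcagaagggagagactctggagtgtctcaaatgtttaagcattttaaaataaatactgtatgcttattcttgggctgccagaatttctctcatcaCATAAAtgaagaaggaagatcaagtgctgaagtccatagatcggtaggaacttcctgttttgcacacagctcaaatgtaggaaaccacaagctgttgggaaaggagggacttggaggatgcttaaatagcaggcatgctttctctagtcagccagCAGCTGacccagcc
Ang4: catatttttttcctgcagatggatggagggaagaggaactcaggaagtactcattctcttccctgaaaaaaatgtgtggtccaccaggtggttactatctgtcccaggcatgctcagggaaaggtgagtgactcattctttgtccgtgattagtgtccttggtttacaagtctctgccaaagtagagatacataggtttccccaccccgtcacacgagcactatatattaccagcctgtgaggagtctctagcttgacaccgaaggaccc
Mmp7: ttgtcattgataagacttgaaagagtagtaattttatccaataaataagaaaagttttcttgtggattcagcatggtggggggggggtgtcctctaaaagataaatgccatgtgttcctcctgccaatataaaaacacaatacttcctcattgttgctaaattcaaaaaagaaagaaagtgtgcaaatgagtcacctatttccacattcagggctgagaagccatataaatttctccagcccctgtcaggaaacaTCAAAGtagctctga
The 2 lysozyme windows were identical in 225 of 280 aligned columns (80.4%). The 3 motifs searched, on either strand, were CTTTGA, which is bound by TCF/LEF factors, the E-box CAGCTG, which reads the same on both strands, and TTTATG, which is bound by CDX factors. Lyz1 and Lyz2 each held the E-box at position 7 after the start, counted from 1 at the first transcribed base, a motif present in 14.0% of the 27025 mouse promoter windows of this length. Mmp7 held the TCF/LEF motif on the opposite strand, as TCAAAG at position 6, where 15.0% of windows held it. The CDX motif, in 11.6% of windows, was found in Lyz2 at position -149 and in Itln1 at position -29, in each case on the opposite strand. The Itln1 window, chr1:171535275-171535544, minus strand, was set on a start inside the gene bounds given below, and its match also lies within those bounds. The Ang4 window held none of these letters, and no 2 matches overlapped.

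Total counts per library ran from 10.881 to 41.602 M (1e6 counts), with a median of 25.9 M. Lgr5, the gene of the sort, stood at 52 ± 2.85 nRPKM in AKVPSL GFP+ and 13.1 ± 3.48 nRPKM in AKVPSL GFP- libraries, and at 57.2 ± 7.59 nRPKM in AKVPL GFP+ and 13.6 ± 1.74 nRPKM in AKVPL GFP- libraries (SD, n = 4 each). nRPKM is the level per gene length that the authors deposited, that is RPKM further adjusted by a size factor. The alpha-defensins, which define Paneth cells, were near 0: the 10 defensin genes in the files had 84 counts in all over the 16 libraries, 53 of them in AKVPSL GFP+, 6 in AKVPSL GFP-, 17 in AKVPL GFP+ and 8 in AKVPL GFP- libraries, and 5 of the genes had none. No library held more than 24 defensin counts. The 4 genes are therefore called by their symbols below and are not read as a count of Paneth cells. In bulk RNA of sorted cells, fewer cells that express a gene and less RNA per cell cannot be told apart.

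All 4 genes were higher in GFP+ than in GFP- cells of AKVPSL tumours, and 3 of them, Lyz1, Mmp7 and Itln1, were also higher in GFP+ cells of AKVPL tumours. Ang4 stood out from the other members: its level was above 4 nRPKM in each AKVPSL GFP+ library and at most 1.63 nRPKM in every other library, and its sort difference in AKVPL pointed the other way without passing the threshold. A difference was called at an adjusted p under 0.05 in edgeR's quasi-likelihood test, with Benjamini-Hochberg adjustment over the 18072 genes tested, and all 4 members were among those tested. With so many genes moving, the background matters. For the sort in AKVPSL, 22.4% of all genes tested were called higher and 47% in either direction, and for the sort in AKVPL 22.6% were called higher and 39.1% in either direction. The 2 sorted groups did not overlap for 39.1% of genes in AKVPSL and 41.2% in AKVPL, and the called members were among them. Between the genotypes in GFP+ cells 1 member was called, Ang4, higher in AKVPSL, where 24.9% of all genes were called higher and 53% in either direction. Its 2 groups did not overlap, as held for 51.3% of all genes. In GFP- cells 3 members were called, all lower in AKVPSL, where 30.7% of all genes were called lower, 32% higher and 62.7% in either direction. Of these, Lyz1 and Mmp7 had groups that did not overlap, as held for 53.2% of all genes. The sort effects of the 2 genotypes differed for 2 members, Ang4 and Mmp7, each larger in AKVPSL, where 7.01% of all genes were called higher and 20.7% in either direction, and with the replicate number as a block that of Lyz1 passed as well. The plot of levels by library shows these patterns.

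**Figure D1:**
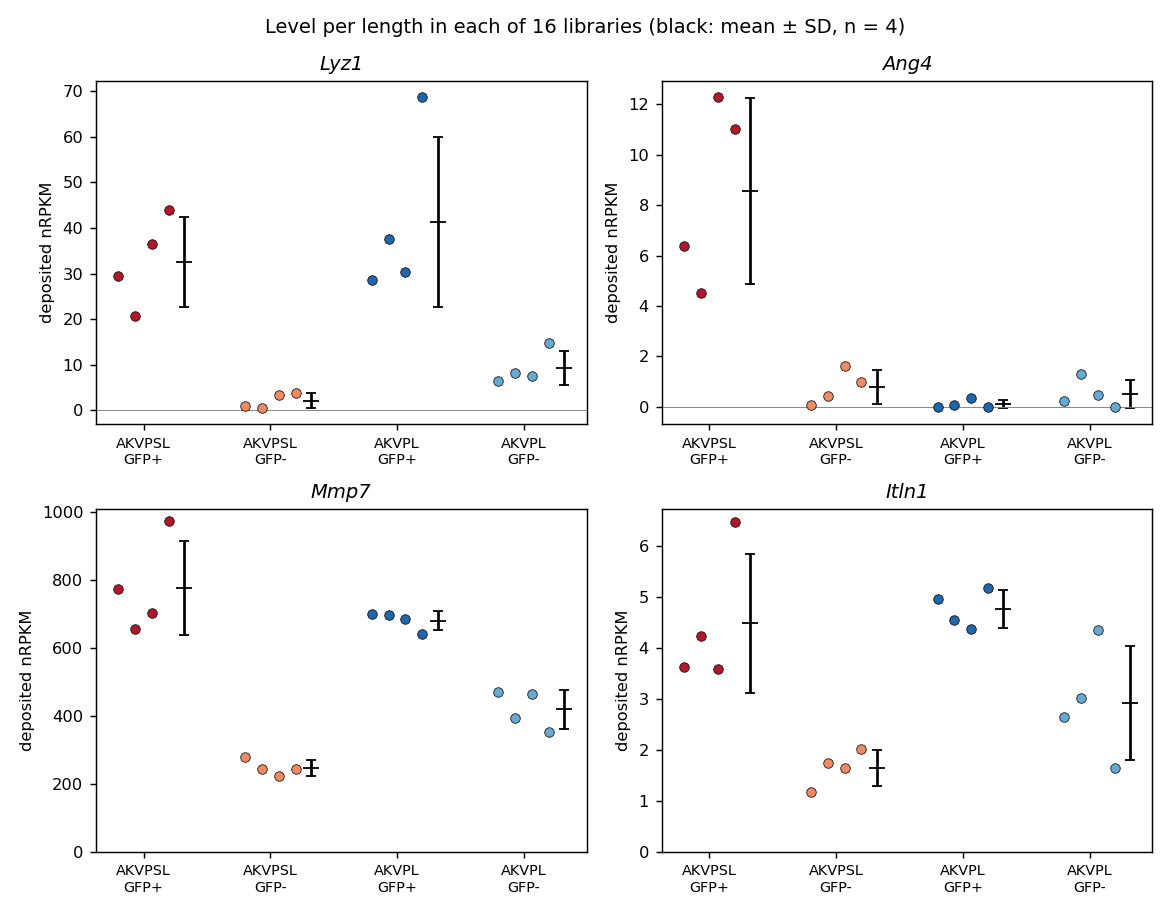
Deposited level per length (nRPKM, linear axes, separate for each gene) of Lyz1, Ang4, Mmp7 and Itln1 in each library, with points for replicates 1 to 4 of a group from left to right and black marks for the mean ± SD (n = 4). Lyz1 and Mmp7 lie higher in the GFP+ libraries of each genotype, while Ang4 exceeds 4 nRPKM in the AKVPSL GFP+ libraries and stays at or under 1.63 nRPKM in all others.

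Lyz1 (Gene ID 17110) lies on chromosome 10 of GRCm38, from 117287795 to 117292868, and no other annotated gene overlaps it. In AKVPSL GFP+ replicates 1 to 4 it reached 29.4, 20.7, 36.4 and 43.9 nRPKM, against 0.97, 0.448, 3.32 and 3.94 nRPKM in AKVPSL GFP- replicates 1 to 4. Every GFP+ library lay far above every GFP- library, and GFP- replicates 3 and 4 stood above GFP- replicates 1 and 2. In AKVPL it reached 28.6, 37.6, 30.3 and 68.8 nRPKM in GFP+ libraries, against 6.46, 8.28, 7.52 and 14.8 nRPKM in GFP- libraries. These groups did not overlap either, and replicate 4 was the highest of its group in each sort. The log2 fold change of GFP+ over GFP- was 3.91 ± 0.55 (SE; 15.1-fold; edgeR adjusted p = 8.81e-05) in AKVPSL and 2.28 ± 0.50 (4.84-fold; edgeR adjusted p = 0.00259) in AKVPL.

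Between the genotypes, Lyz1 averaged 32.6 ± 9.93 nRPKM in AKVPSL GFP+ and 41.3 ± 18.8 nRPKM in AKVPL GFP+ libraries (SD, n = 4 each). The GFP+ ranges overlapped, and the log2 difference of -0.34 had a 95% interval from -1.33 to 0.66 (edgeR adjusted p = 0.566), so a change of either sign was within it. Without AKVPL GFP+ replicate 4 the value was 0.02. Among GFP- cells it averaged 2.17 ± 1.72 nRPKM in AKVPSL and 9.27 ± 3.78 nRPKM in AKVPL libraries, and all 4 AKVPSL libraries lay below all 4 AKVPL libraries. This was a log2 fold change of -1.97 ± 0.54 (edgeR adjusted p = 0.00557). The lowest level of Lyz1 was thus in AKVPSL GFP-, the next in AKVPL GFP-, and the GFP+ groups of the 2 genotypes were not told apart. The sort effect was 1.64 ± 0.71 log2 units larger in AKVPSL, which did not pass the threshold (edgeR adjusted p = 0.115). With the replicate number as a block the difference was 1.87 and passed (edgeR adjusted p = 0.00329).

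Lyz2 (Gene ID 17105), at 117277541 to 117282272 on the same chromosome with 5522 bases between it and Lyz1, ran the other way with the sort. It stood at 16.5, 36, 64.6 and 104 nRPKM in AKVPSL GFP+, against 191, 139, 1140 and 555 nRPKM in AKVPSL GFP- replicates 1 to 4. In AKVPL it stood at 152, 163, 412 and 188 nRPKM in GFP+, against 1470, 2272, 2001 and 1292 nRPKM in GFP- libraries. GFP+ lay below GFP- in each genotype with no overlap, and the log2 fold change was -3.20 ± 0.70 in AKVPSL (edgeR adjusted p = 0.0021) and -2.85 ± 0.68 in AKVPL (edgeR adjusted p = 0.00489). Between the genotypes Lyz2 did not run opposite to Lyz1. In GFP- cells it was lower in AKVPSL, as Lyz1 was, by a log2 fold change of -1.70 ± 0.66 (edgeR adjusted p = 0.0363). In GFP+ cells it was lower by -2.05 ± 0.67 (edgeR adjusted p = 0.0191), where Lyz1 was not told apart. The ratio of Lyz1 to Lyz2 per length was 0.423 to 1.78 in AKVPSL GFP+ and 0.00291 to 0.00711 in AKVPSL GFP- libraries. It was 0.0735 to 0.366 in AKVPL GFP+ and 0.00364 to 0.0115 in AKVPL GFP- libraries. Lyz1 exceeded Lyz2 in 1 library of the 16, AKVPSL GFP+ replicate 1.

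**Figure D2:**
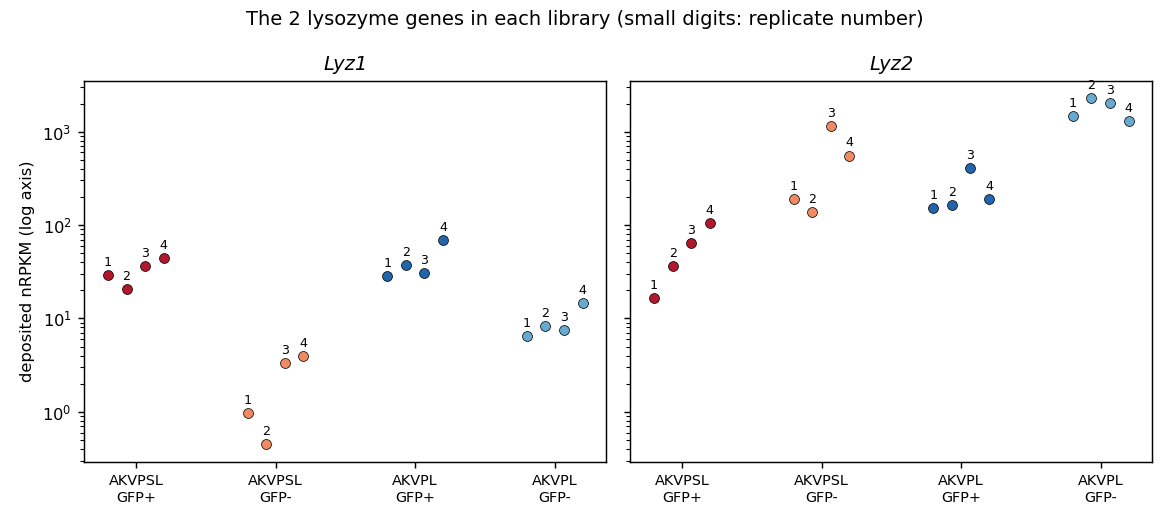
Deposited level per length (nRPKM, log axis shared by the panels) of Lyz1 and Lyz2 in each library, with the replicate number above each point. Lyz1 is higher and Lyz2 lower in the GFP+ libraries of each genotype, and AKVPSL GFP- replicates 3 and 4 are the highest of their group in both panels.

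The 2 lysozyme genes are close copies. Of the 1214 stretches of 50 bases in the Lyz1 transcript, 195 (16.1%) also occurred in Lyz2, and reads that fall wholly there cannot be assigned to either gene. The AKVPSL GFP- libraries with more Lyz2, replicates 3 and 4, also had more Lyz1, 104 and 136 counts against 41 and 13 counts in replicates 1 and 2. Whether misassigned Lyz2 reads add to the low Lyz1 counts of the GFP- libraries was not tested.

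Ang4 (Gene ID 219033, chromosome 14, 51763892 to 51773590) had the largest genotype difference of the 4. In AKVPSL GFP+ replicates 1 to 4 it had 198, 103, 281 and 205 counts, or 6.39, 4.52, 12.3 and 11 nRPKM, against 0, 2, 7 and 0 counts in AKVPL GFP+ libraries, at most 0.362 nRPKM. All AKVPSL GFP+ libraries lay far above all AKVPL GFP+ libraries, and in the 2 AKVPL libraries with no count the limit that 3 counts allow was 0.0862 and 0.166 CPM (counts per 1e6 counts), for counting error only. The log2 fold change of AKVPSL over AKVPL in GFP+ cells was 6.23 ± 0.91 (edgeR adjusted p = 3e-05). Because the AKVPL counts were so few, its size depends on the scale: on log2(nRPKM + 1) it was 3.03 and on log2(nRPKM + 0.1) it was 5.56.

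Within AKVPSL tumours, the GFP- libraries had 2, 7, 28 and 19 counts of Ang4, or 0.0861, 0.439, 1.63 and 1 nRPKM, all below the GFP+ libraries. The log2 fold change of GFP+ over GFP- was 3.46 ± 0.71 (11-fold; edgeR adjusted p = 0.00108). In AKVPL the GFP+ libraries summed to 9 counts and the GFP- libraries to 37 counts, of which replicates 1 to 4 gave 5, 25, 7 and 0. The GFP+ and GFP- ranges overlapped there, and GFP- replicate 2 held most of the reads. In AKVPL the log2 fold change was -2.22 ± 1.10 with a 95% interval from -4.56 to 0.11 (edgeR adjusted p = 0.121). It passed with the replicate block, at -2.20 (edgeR adjusted p = 0.049), and without AKVPL GFP+ replicate 3, at -3.85 (edgeR adjusted p = 0.0425). Without AKVPL GFP- replicate 2 it was -1.19.

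The difference between the sort effects of Ang4 was 5.68 ± 1.28 log2 units (AKVPSL minus AKVPL; edgeR adjusted p = 0.00646). Among GFP- cells Ang4 averaged 0.788 ± 0.674 nRPKM in AKVPSL and 0.502 ± 0.557 nRPKM in AKVPL (SD, n = 4 each), with overlapping ranges and a log2 difference of 0.55 whose 95% interval ran from -1.23 to 2.32 (edgeR adjusted p = 0.586). AKVPSL GFP+ was thus the highest group, and neighbours among the other 3 groups were not told apart. Of 660 stretches of 50 bases in Ang4, 31 (4.7%) occur in other genes, 30 of them in Ang5, an angiogenin gene of the same family. Ang5 had 0 counts in AKVPSL GFP+, 2 in AKVPSL GFP-, 0 in AKVPL GFP+ and 80 in AKVPL GFP- libraries. Whether reads of Ang5 add to the Ang4 counts was not tested. Ang, the angiogenin gene of the family that is expressed in many tissues, moved less: its genotype difference was 0.76 ± 0.11 in GFP+ cells (16.9 ± 1.4 nRPKM in AKVPSL and 9.97 ± 0.557 nRPKM in AKVPL). Its reads overlap those of Rnase4, so Ang values are uncertain.

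**Figure D3:**
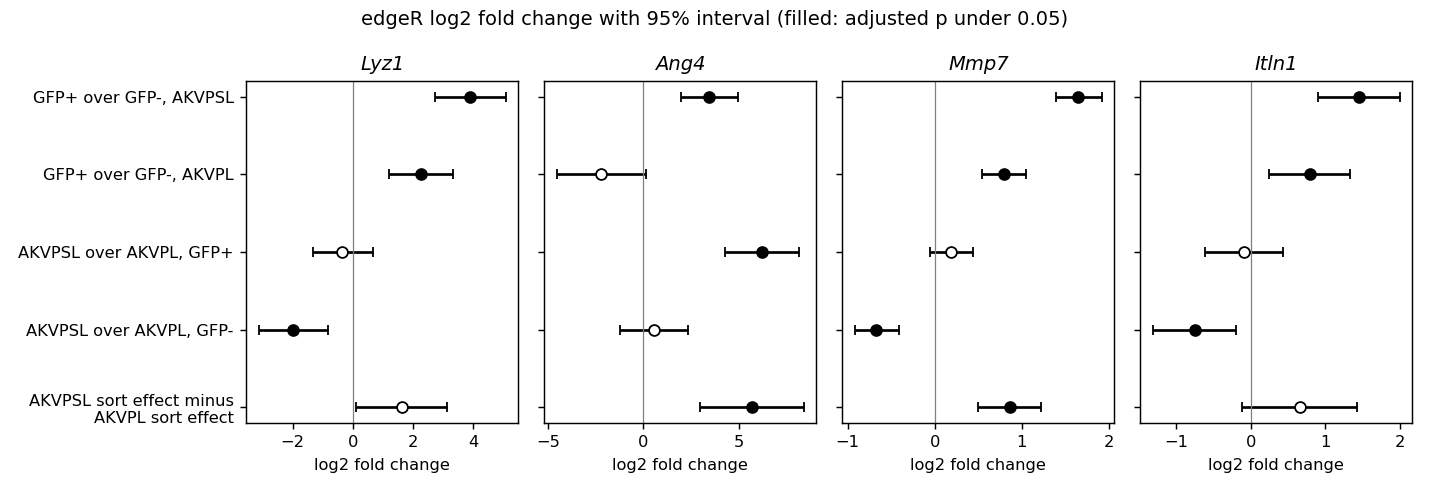
Log2 fold change (edgeR, points) with its 95% interval (bars) of each gene for GFP+ over GFP- in AKVPSL and in AKVPL, for AKVPSL over AKVPL in GFP+ and in GFP- cells, and for the difference of the sort effects, on axes that differ between panels. Filled points have an adjusted p under 0.05. The sort effects of Lyz1, Mmp7 and Itln1 lie right of 0 in each genotype, and Ang4 has its largest value, 6.23, between the genotypes in GFP+ cells.

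Mmp7 (Gene ID 17393, chromosome 9, 7692090 to 7699585) was by far the most abundant member, ranking between 20 and 278 of all 36528 IDs per length in the 16 libraries. In AKVPSL it stood at 773, 654, 703 and 971 nRPKM in GFP+ replicates 1 to 4, against 279, 244, 223 and 243 nRPKM in GFP- replicates. In AKVPL it stood at 699, 695, 684 and 641 nRPKM in GFP+, against 470, 392, 463 and 352 nRPKM in GFP- libraries. The groups of a genotype did not overlap, and the GFP- libraries of AKVPL lay between the other groups. The log2 fold change of GFP+ over GFP- was 1.65 ± 0.12 in AKVPSL (3.15-fold; edgeR adjusted p = 8.95e-08) and 0.80 ± 0.12 in AKVPL (1.74-fold; edgeR adjusted p = 6.18e-05), and the effects differed by 0.86 ± 0.17 (edgeR adjusted p = 0.00227).

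Between the genotypes the GFP+ cells of AKVPSL, at 775 ± 139 nRPKM, were not told apart from those of AKVPL, at 680 ± 26.6 nRPKM (SD, n = 4 each). The log2 difference was 0.19 with a 95% interval from -0.06 to 0.44 (edgeR adjusted p = 0.195). In GFP- cells Mmp7 averaged 247 ± 23.2 nRPKM in AKVPSL and 419 ± 57 nRPKM in AKVPL, a log2 fold change of -0.67 ± 0.12 (edgeR adjusted p = 0.000114) with no overlap. The larger sort effect in AKVPSL went with the lower level in its GFP- cells. Mmp7 shared no stretch of 50 bases with another gene. The long non-coding RNA gene AV064505 (Gene ID 102722, chromosome 9, 7669429 to 7695631) overlaps it by 3542 bases, and its counts were 18.1% to 20.8% of those of Mmp7 in every library. Strand use in the counting is not given, so reads of these overlapping genes cannot be told apart.

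Itln1 (Gene ID 16429, chromosome 1, 171518123 to 171535325) was low in all groups. In AKVPSL it stood at 3.63, 4.24, 3.59 and 6.47 nRPKM in GFP+, against 1.17, 1.74, 1.65 and 2.02 nRPKM in GFP- replicates 1 to 4. In AKVPL it stood at 4.97, 4.55, 4.37 and 5.18 nRPKM in GFP+, against 2.64, 3.01, 4.36 and 1.65 nRPKM in GFP- libraries. GFP+ and GFP- were clear of each other in AKVPSL, while in AKVPL the lowest GFP+ and the highest GFP- library, replicate 3 of each, were almost level. The log2 fold change of GFP+ over GFP- was 1.45 ± 0.26 (edgeR adjusted p = 0.000264) in AKVPSL and 0.79 ± 0.26 (edgeR adjusted p = 0.0209) in AKVPL. The AKVPL call ended without AKVPL GFP- replicate 4 (0.62) or replicate 1 (0.74). The effects differed by 0.66 ± 0.37 log2 units, short of the threshold (edgeR adjusted p = 0.207).

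Between the genotypes Itln1 averaged 4.48 ± 1.36 nRPKM in AKVPSL GFP+ and 4.77 ± 0.373 nRPKM in AKVPL GFP+ libraries, with a log2 difference of -0.09 (95% interval -0.61 to 0.43; edgeR adjusted p = 0.78). In GFP- cells it averaged 1.65 ± 0.352 nRPKM in AKVPSL and 2.92 ± 1.12 nRPKM in AKVPL, and the log2 fold change was -0.75 ± 0.27 (edgeR adjusted p = 0.0206). The GFP- ranges overlapped, and the call ended without AKVPSL GFP- replicate 1 (-0.59) or AKVPL GFP- replicate 3 (-0.50). The first of these is the library whose tissue field gives colon. The order of levels was that of Mmp7 in the GFP- groups, lowest in AKVPSL, with the GFP+ groups not told apart. The related gene Itlnb had no row in the tables used here.

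Exact permutation tests, each on 2 sides and of 4 against 4 libraries, on log2(nRPKM + 1) gave p = 0.0286, the smallest that such a design allows, for every called sort and genotype difference of the 4 genes other than Itln1 in GFP- cells, where the exact p was 0.0857. The ratio of Mmp7 to Lyz1 per length was 19.3 to 31.6 in AKVPSL GFP+ and 61.7 to 543 in AKVPSL GFP- libraries, with no overlap. It was 9.31 to 24.5 in AKVPL GFP+ and 23.7 to 72.7 in AKVPL GFP- libraries, where the ranges overlapped, and the ratio was not tested. The wide range in AKVPSL GFP- libraries came with Lyz1 levels that differed 8.84-fold between the highest and the lowest library, against 1.25-fold for Mmp7.

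Markers of other cell types moved with these comparisons. The 22 leukocyte markers summed to 126 to 437 CPM in AKVPSL GFP+ and 1074 to 4706 CPM in AKVPSL GFP- libraries, and to 568 to 1484 CPM in AKVPL GFP+ and 4671 to 8428 CPM in AKVPL GFP- libraries. These sums include Lyz2, which alone averaged 64.3 CPM in AKVPSL GFP+, 588 CPM in AKVPSL GFP-, 265 CPM in AKVPL GFP+ and 1910 CPM in AKVPL GFP- libraries. The 18 fibroblast markers summed to 265 to 1275 CPM in AKVPSL GFP+ and 1963 to 3449 CPM in AKVPSL GFP-, and to 755 to 1454 CPM in AKVPL GFP+ and 5527 to 11488 CPM in AKVPL GFP- libraries. Of 20 leukocyte markers tested, 19 fell in GFP+ cells of each genotype, and of 18 fibroblast markers 18 fell in AKVPSL and 15 in AKVPL. Of the 14 endothelial markers 11 fell and 1 rose in AKVPSL, and 13 fell in AKVPL. Over all genes tested 24.6% fell with the sort in AKVPSL and 16.5% in AKVPL. The 14 endothelial markers summed to 261 to 345 CPM in AKVPSL GFP+ and 272 to 683 CPM in AKVPSL GFP-, and to 176 to 221 CPM in AKVPL GFP+ and 582 to 1044 CPM in AKVPL GFP- libraries. Among defining markers at 0 counts in a whole group were Nkg7 in the AKVPSL groups and Cd3d in AKVPSL GFP+, and, on the epithelial list, Cdx1 in the GFP- groups. The 19 epithelial markers summed to 10976 to 11329 CPM in AKVPSL GFP+ and 12239 to 12910 CPM in AKVPSL GFP-, and to 11274 to 13043 CPM in AKVPL GFP+ and 9309 to 10707 CPM in AKVPL GFP- libraries.

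When libraries were scaled on the epithelial list in place of all genes, the median log2 fold change of all genes for the sort in AKVPL shifted by -0.34. Against that shift Mmp7 still passed, at 0.46 (edgeR adjusted p = 0.00711), Lyz1 was at 1.95 and Itln1, at 0.47, did not pass (edgeR adjusted p = 0.177). For the sort in AKVPSL the scaling moved Mmp7 to 1.62 and Itln1 to 1.41, and all 4 calls held. The split of all genes called for the sort in AKVPL was 4089 higher and 2981 lower with the scaling used throughout, and 718 higher and 5355 lower with epithelial scaling. For the difference of the sort effects it was 1267 higher and 2476 lower, against 3167 higher and 770 lower, with a shift of 0.29 in the median, and in GFP- cells between the genotypes 5786 higher and 5542 lower, against 4003 higher and 7228 lower, with a shift of -0.23. The part of other cell types in the sort and genotype differences beyond this rescaling was not tested.

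Other genes on the Paneth granule list had varied patterns, and a place on that list does not show that a gene's protein is stored in granules. Of the 22 on the list, which includes the defensins, 20 were in the files and 8 passed the filter on low counts, so no count of calls is given for them. Reg3g, an antibacterial lectin of the intestinal epithelium, behaved like the sort pattern of Lyz1: it stood at 41.5 ± 15.1 CPM in AKVPSL GFP+ and 9.59 ± 1.5 CPM in AKVPSL GFP-, and at 38.1 ± 1.85 CPM in AKVPL GFP+ and 11.5 ± 2.14 CPM in AKVPL GFP- libraries (SD, n = 4 each). Its log2 fold change with the sort was 2.11 ± 0.21 in AKVPSL (edgeR adjusted p = 1.21e-06) and 1.71 ± 0.21 in AKVPL (edgeR adjusted p = 6.57e-06). Reg3b, a lectin of the same family, was nearly absent from AKVPSL, with 75 counts in GFP+ and 4 in GFP- libraries, against 18392 in AKVPL GFP+ and 4166 in AKVPL GFP- libraries. Pla2g2a, a secreted phospholipase that kills bacteria, averaged 11.9 ± 1.92 CPM in AKVPSL GFP+ and 124 ± 23 CPM in AKVPL GFP+ libraries, and 8.54 ± 1.96 CPM in AKVPSL GFP- and 140 ± 18.6 CPM in AKVPL GFP- libraries. In GFP+ cells the genes of this list went both ways between the genotypes. Reg3b and Pla2g2a were lower in AKVPSL, by log2 fold changes of -8.01 ± 0.54 and -3.38 ± 0.17 (edgeR adjusted p = 2.37e-08 and 1.97e-11), and so were Mptx2 (-4.56) and Copz2 (-1.15). Clps, the gene of colipase, a cofactor of lipase, was higher in AKVPSL, as Ang4 was, by 3.26 ± 0.26 (edgeR adjusted p = 6.04e-09), and so was Habp2 (0.84). Reg3g, at 0.12 ± 0.20 (edgeR adjusted p = 0.627), and Pnliprp2, at -0.18, did not pass the threshold. With the sort, Reg3b, Clps and Habp2 rose in each genotype as Reg3g did, though the Clps call in AKVPL ended with epithelial scaling. The Reg3b rise in AKVPSL (3.78 ± 1.26, edgeR adjusted p = 0.0248) rests on few counts, uneven over the GFP+ libraries (0.655 ± 0.693 CPM). Copz2 fell instead, by a log2 fold change of -2.99 ± 0.37 in AKVPSL and -2.72 ± 0.35 in AKVPL (edgeR adjusted p = 9.75e-06 and 1.16e-05). Pla2g2a rose in AKVPSL (0.48) and did not pass in AKVPL (-0.18), and Mptx2 and Pnliprp2 passed in neither genotype.

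The 19 genes of the Paneth factors list were all tested. They are transcription factors, receptors and ligands linked to Paneth or other secretory cells, with other genes such as Reg4 among them. For the sort in AKVPSL 11 rose and 3 fell, with a median log2 fold change of 0.73 against -0.01 over all genes, of which 22.4% rose and 24.6% fell. For the sort in AKVPL 6 rose and 4 fell, with a median of 0.17 against 0.14 over all genes, of which 22.6% rose and 16.5% fell, and with epithelial scaling 2 rose and 5 fell, with a median of -0.17. In GFP+ cells between the genotypes 9 rose and 7 fell (median -0.05, as over all genes), where 24.9% of all genes rose and 28.1% fell. In GFP- cells 6 rose and 10 fell (median -0.40 against 0.00), where 32% of all genes rose and 30.7% fell. The difference of the sort effects was called higher for 5 and lower for 2 (median 0.20 against -0.10), against 7.01% and 13.7% of all genes. Reg4, a secreted lectin of deep crypt secretory cells, rose with the sort by 3.16 ± 0.17 in AKVPSL (edgeR adjusted p = 3.35e-09), and its value in AKVPL was 0.38 ± 0.19 (edgeR adjusted p = 0.113). Spdef, a factor for goblet and Paneth cell maturation, rose by 0.89 ± 0.15 in AKVPSL and 1.23 ± 0.15 in AKVPL. Xbp1, a regulator of the secretory pathway, rose by 0.97 ± 0.09 in AKVPSL, while its value in AKVPL, 0.14 ± 0.09, did not pass the threshold (edgeR adjusted p = 0.254). Kit, a receptor tyrosine kinase of colonic secretory cells, fell with the sort by 0.87 in AKVPSL and by 0.78 in AKVPL, and it was lower in AKVPSL than in AKVPL GFP+ cells by a log2 fold change of -4.39 ± 0.11. Dll1 was lower there as well, by -3.36 ± 0.19. Hepacam2 had a log2 fold change of -1.29 ± 0.15 with the sort in AKVPL, and its sort effect was 2.10 ± 0.23 larger in AKVPSL. Between the genotypes in GFP- cells Hepacam2 was lower in AKVPSL, by -4.76 ± 0.18. Atoh1, the factor that starts secretory differentiation, had 172 counts in AKVPSL GFP+, 27 in AKVPSL GFP-, 3 in AKVPL GFP+ and none in AKVPL GFP- libraries. Wnt3, the WNT ligand that Paneth cells supply to stem cells, had 123, 14, 7 and 41 counts in the same 4 groups, a difference of sort effects of 5.63 ± 0.67 log2 units (edgeR adjusted p = 2.46e-05).

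**Figure D4:**
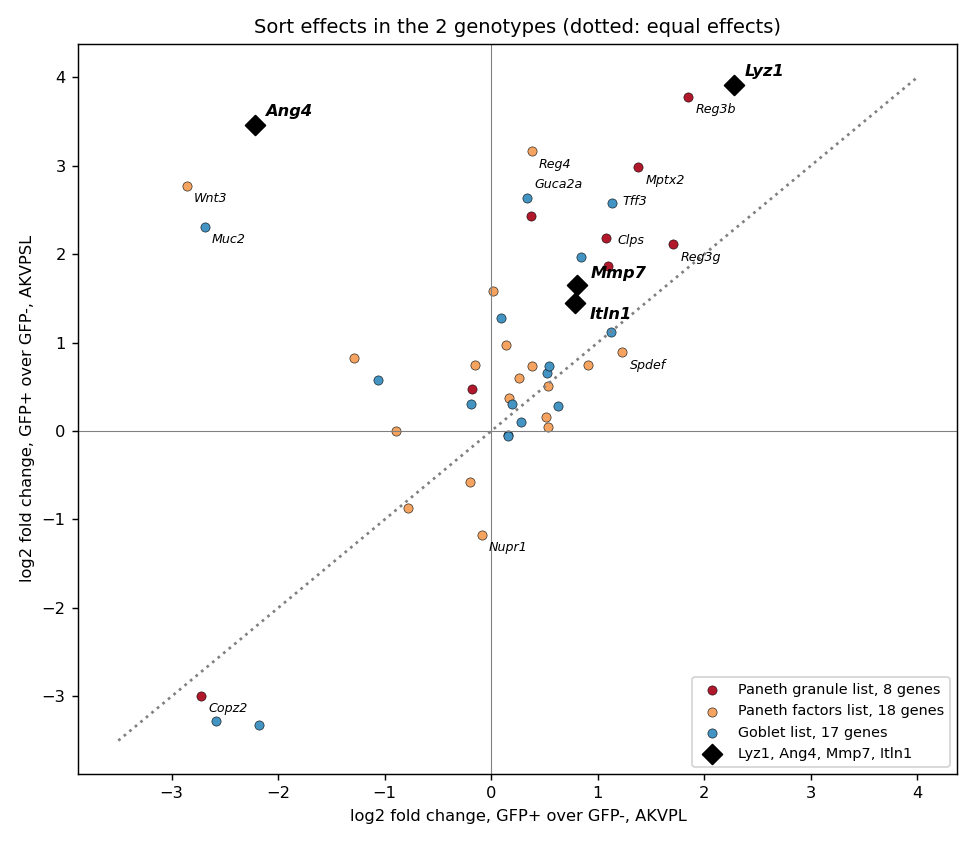
Log2 fold change of GFP+ over GFP- in AKVPSL (vertical axis) against that in AKVPL (horizontal axis) for genes of the Paneth granule, Paneth factors and goblet lists that were tested, leaving out Atoh1, which had 3 counts or fewer in the AKVPL groups. Black diamonds are the 4 members and the dotted line marks equal effects. Lyz1, Mmp7 and Itln1 lie above the line in the upper right, while Ang4 (3.46 against -2.22) lies in the upper left near Wnt3 and Muc2, whose AKVPL value is 0.91 without AKVPL GFP- replicate 2.

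The genes with the most similar pattern over the 16 libraries were taken by the smallest root-mean-square difference of log2 CPM, each gene centred on its own mean, among 12358 named genes above a mean log2 CPM of 1. For Lyz1 they were Pigr, the receptor that carries IgA across the epithelium (difference 0.95), the adaptor gene Stac (1.06) and the semaphorin gene Sema4g (1.12). Pigr averaged 146 CPM in AKVPSL GFP+, 19.8 in AKVPSL GFP-, 170 in AKVPL GFP+ and 55.4 in AKVPL GFP- libraries. For Ang4 they were Muc2, the gel-forming mucin of goblet cells (1.07), Reg4 (1.17) and Guca2a, the precursor of guanylin (1.25). For Mmp7 they were the overlapping AV064505 (0.06), Gkn3, a secreted gastrokine (0.20), and Tox, a gene for a DNA-binding HMG-box protein (0.21). For Itln1 they were Gkn3 (0.25), Mmp7 itself (0.31) and AV064505 (0.33). The same genes came first in each case with DESeq2 size factors and with epithelial scaling. The difference to the nearest 3 genes was 0.06 to 0.33 log2 units for Mmp7 and Itln1, and 0.95 to 1.25 for Lyz1 and Ang4.

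Muc2, the nearest gene to Ang4, was at 11.6, 14.2, 19.4 and 27.3 CPM in AKVPSL GFP+ and 2.33, 2.15, 5.85 and 4.32 CPM in AKVPSL GFP- replicates 1 to 4. In AKVPL GFP+ it was at 0.431, 0.835, 1.21 and 0.554 CPM, and in AKVPL GFP- at 0.354, 17.6, 0.387 and 0.508 CPM. AKVPL GFP- replicate 2 stood apart from its group in Muc2 and was also the library of AKVPL with the most Ang4. Reg4 and Guca2a did not share that peak, with 3.27 and 0.515 CPM in that library. Reg4 averaged 90.1 ± 13.5 CPM in AKVPSL GFP+, 10 ± 1.88 in AKVPSL GFP-, 4.4 ± 1.16 in AKVPL GFP+ and 3.41 ± 0.281 CPM in AKVPL GFP- libraries (SD, n = 4 each).

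**Figure D5:**
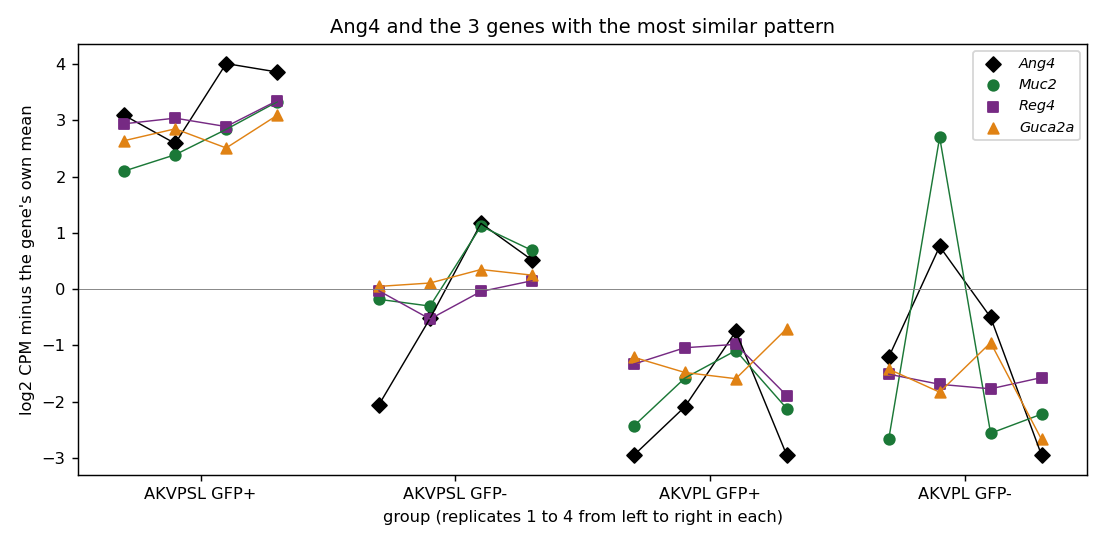
Log2 CPM of Ang4 and its 3 nearest genes minus each gene's own mean over the 16 libraries, with replicates 1 to 4 of each group from left to right and lines joining a gene's values within a group. All 4 genes have their highest group mean in AKVPSL GFP+. In AKVPL GFP- replicate 2, Muc2 (2.70) and Ang4 rise above the other libraries of that group while Reg4 and Guca2a do not. Muc2 there also lies above AKVPSL GFP+ replicates 1 (2.10) and 2 (2.39).

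Goblet cell genes overlapped with this pattern in part. Of the 17 tested of 18 listed, 6 rose and 2 fell with the sort in AKVPSL (median 0.58 against -0.01 over all genes), where 22.4% of all genes rose and 24.6% fell. In AKVPL 4 rose and 2 fell (median 0.19 against 0.14), where 22.6% of all genes rose and 16.5% fell. In AKVPL with epithelial scaling 1 rose and 3 fell, with a median of -0.14. Between the genotypes 9 rose and 6 fell in GFP+ cells (median 1.34 against -0.05) and 9 rose and 5 fell in GFP- cells (median 0.39 against 0.00), where 24.9% of all genes rose and 28.1% fell in GFP+ cells and 32% rose and 30.7% fell in GFP- cells. Tff3, the trefoil peptide of goblet cells, rose by 2.58 ± 0.26 with the sort in AKVPSL (edgeR adjusted p = 1.27e-06) and was 4.69 ± 0.30 log2 units higher in AKVPSL than in AKVPL GFP+ cells (edgeR adjusted p = 2.99e-10). Fcgbp, an IgG Fc-binding protein of mucus, also rose with the sort in AKVPSL, by 1.28 ± 0.34 (edgeR adjusted p = 0.00555). Between the genotypes it went the other way from Tff3, with a log2 fold change of -3.94 ± 0.31 in AKVPSL against AKVPL GFP+ cells (edgeR adjusted p = 2.43e-08). In GFP- cells it was -5.14 ± 0.34 (edgeR adjusted p = 3.61e-09). The difference of the sort effects was called for 4 goblet genes, all larger in AKVPSL, as it was for 7.01% of all genes, among them Guca2a at 2.30 ± 0.39 (edgeR adjusted p = 0.000739) and Muc2 at 5.00 ± 1.44 (edgeR adjusted p = 0.0265). That count was 1 without AKVPL GFP+ replicate 1, AKVPL GFP+ replicate 4 or AKVPL GFP- replicate 2, and 2 when AKVPL GFP+ replicate 2 or else AKVPSL GFP- replicate 1 was left out. The Muc2 difference was 1.40 and short of the threshold without AKVPL GFP- replicate 2.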

How the data were processed

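RNA was measured by sequencing in cells sorted by flow cytometry and extracted with a column kit, per the labels' protocols. The submitters' processing notes name GSNAP and GRCm38, without versions, and nothing used here gives strand use. A gene's count covers reads with a unique alignment to its model, per the file headers, and counts were deposited for 36528 NCBI Gene IDs. The authors also deposited nRPKM, which per the file headers is RPKM with a size-factor adjustment. Within each library it was a rescaling of the counts.

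Symbols and positions came from RefSeq GRCm38.p6 tables, which matched 31049 IDs (85.0%). Titles gave the groups. In each of the 24 pairs of libraries of a group, a chi-square over genes with at least 10 counts was 9.05 to 73.58 times its degrees of freedom, so no library repeated another. Counts were fitted in edgeR 4.0.16 (R 4.3.3) with filterByExpr (18072 genes), TMM scaling (factors 0.936 to 1.086), 1 mean per group over all 16 libraries, and robust quasi-likelihood F tests (12 residual degrees of freedom), with Benjamini-Hochberg adjustment over the genes tested in each contrast. The threshold was 0.05. The SE is approximate, being the log2 fold change over the root of F, and all tests are two-sided. CPM are TMM-scaled. Values of nRPKM were compared after log2(nRPKM + 1) by exact permutation. The steps were tested on simulated data.

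Alternatives were DESeq2 1.42.0, limma 3.58.1 on log2(nRPKM + 1) and log2(nRPKM + 0.1), other scalings, other filters, a replicate block and leaving out each library. Epithelial scaling, among the other scalings, used DESeq2 size factors from the genes of the epithelial list with counts in every library. Same-numbered GFP+ and GFP- libraries deviated together within a genotype (correlations 0.159 to 0.433 in AKVPL and 0.125 to 0.547 in AKVPSL, all over 0.1). The labels do not state a pairing, so the numbers served as a block in an alternative only. The main fit and the exact permutation tests did not pair libraries. In AKVPSL, replicates 3 and 4 correlated more with another number, so pairing by number is uncertain there. Between genotypes the correlations of same-numbered libraries ran from 0.003 to 0.413 in GFP+ and from -0.136 to 0.339 in GFP- cells, so a link by number is uncertain there too.

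The members, the 12 gene lists and the tests were chosen with earlier results of these data known. Named beside the members were the 3 nearest genes of each, up to 3 genes of a list with the smallest adjusted p in a contrast, and paralogs. Reg3b, Reg3g, Pla2g2a, Mptx2, Copz2, Clps, Habp2, Pnliprp2, Atoh1, Spdef, Xbp1 and Fcgbp in further contrasts, Cdx1, Cd3d and Nkg7 were named after their values were seen. An item of the genotype shared by all groups is not reported here.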

Additional observations from a re-analysis of the deposited data

Results flagged for a closer look

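The sort effect differed between the genotypes for 2 of the 4 genes, by a test of the difference itself. For Ang4 the difference of the log2 fold changes of GFP+ over GFP-, AKVPSL minus AKVPL, was 5.68 ± 1.28 (edgeR adjusted p = 0.00646), with 3.46 in AKVPSL and -2.22 in AKVPL, where the value did not pass the threshold. For Mmp7 the difference was 0.86 ± 0.17 (edgeR adjusted p = 0.00227), with 1.65 in AKVPSL and 0.80 in AKVPL. With the replicate number as a block the difference of Lyz1 passed as well, at 1.87 (edgeR adjusted p = 0.00329). No library stood apart by Dixon's test in any of the 16 sets of 4 libraries (4 genes in 4 groups). Among all genes tested 20.7% had a called difference of sort effects. The sums of leukocyte and fibroblast markers also differed between sorts and genotypes, and their part in these differences was not tested.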

How the results depend on the processing

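The 4 genes had 13 called differences over the 5 contrasts, of which 11 kept their direction and their side of the threshold under all alternatives run. Of 406 values under an alternative, 394 kept both. The replicate block gave 1.87 for the Lyz1 difference of sort effects (edgeR adjusted p = 0.00329) and -2.20 for Ang4 with the sort in AKVPL (edgeR adjusted p = 0.049), each then past the threshold, and it changed no other call of the 4 genes. Epithelial scaling ended the call of Itln1 with the sort in AKVPL (0.47, edgeR adjusted p = 0.177). Leaving out each library in turn, Itln1 ran from 0.62 to 1.04 with the sort in AKVPL and from -0.92 to -0.50 between genotypes in GFP- cells, where the lowest sizes lost the call. Ang4 with the sort in AKVPL ran from -3.85 to -1.19. Uncalled genotype differences changed sign for Lyz1 in GFP+ (-0.51 to 0.02, above 0 without AKVPL GFP+ replicate 4), Itln1 in GFP+ (-0.31 to 0.03, at 0.01 without AKVPSL GFP+ replicate 3) and Ang4 in GFP- cells (-0.08 to 1.58, below 0 without AKVPSL GFP- replicate 3). The causes were not tested. On log2(nRPKM + 1) the Ang4 values were 3.03 between genotypes in GFP+ cells and 2.79 for the difference of sort effects, since the pseudocount shrinks the folds of low genes. With the 2 compared groups alone, the filter removed Ang4 for the sort in AKVPL and for the genotypes in GFP- cells, and the difference of sort effects has no such version. Counts of all genes called stayed within 1.5 times throughout. For other genes of the lists, 114 of 143 calls held under all alternatives and 0 changed sign. The Ang4 values in AKVPL rest on few counts, since no library there had more than 25.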
